A study of Mus musculus with 6 samples.

Results

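The 9 genes described here encode fibronectin, periostin and related matricellular proteins of the extracellular matrix: Fn1, Postn, Tgfbi, Sparc, Sparcl1, Thbs1, Thbs2, Tnc and Spon2. They were taken by gene symbol from a liver expression table of 55401 genes, and all 9 were among the 18931 genes with enough counts to be tested. They were chosen by the knockout and control levels themselves: in an earlier reading of this comparison, Fn1 and Postn stood lower in the knockout livers while other matrix genes stood higher. The values of the comparison are therefore given for these genes as a description, without a test.

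Fibronectin is a large adhesive glycoprotein that binds cells, through integrins, to collagen and fibrin. In the liver, hepatocytes secrete a soluble plasma form into the blood, and fibroblastic cells lay down an insoluble cellular form made by alternative splicing. Matricellular proteins add little to the mechanical frame of a tissue: they bind collagens, growth factors and cell surface receptors, and in the adult they are best known from wounds and scars, where activated stellate cells, fibroblasts and macrophages make many of them.

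Livers of 3 Alb-Cre Prdx1 fl/fl mice (knockout) were compared with livers of 3 Prdx1 fl/fl mice (control), all male, 8 weeks old at the start and then on MCD for 5 weeks. MCD is an abbreviation that the labels do not spell out, although liver studies commonly use it for a diet deficient in methionine and choline. Both groups carried floxed alleles of Prdx1, the gene of the peroxide-reducing enzyme peroxiredoxin 1. The knockout also carried Cre under the albumin promoter, which is active in hepatocytes, and the controls carried no Cre, so the transgene and the loss of Prdx1 cannot be told apart.

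Deposited counts totalled 58790874 to 78291273 in the knockout libraries and 63189210 to 67319086 in the control libraries. Prdx1 had 78.7, 111 and 75.4 CPM (counts scaled to a common total with TMM factors) in knockout livers, against 644, 570 and 663 CPM in control livers. The fit across all genes gave a log2 fold change of -2.82 ± 0.17 (SE, edgeR's quasi-likelihood test, adjusted p = 4.4e-05). The groups did not overlap. The two-sided p of an exact permutation test was 0.1, which 3 against 3 livers cannot go below. At an adjusted p of 0.05, 3767 genes (19.9% of those tested) were higher and 3415 genes (18.0%) were lower in the knockout. The labels name no litter, batch or sequencing date, and p-values measure the spread among these 6 livers.

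One property of the libraries bears on every direction below. The TMM scaling factors were 1.10 to 1.16 in the knockout libraries and 0.87 to 0.89 in the control libraries. With library sizes alone, the median log2 fold change of all tested genes was 0.41, against 0.05 with TMM factors, a shift of 0.37. In the FPKM values deposited by the authors (fragments scaled by gene length and library size), taken as log2(FPKM + 0.5), it was 0.25. Fold changes near 0 with TMM factors therefore lay higher on the other scales. Those of Fn1 and Postn were below 0 and came nearer to it. Ratios of genes within a library do not depend on this choice.

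Fn1 had 1224, 1293 and 1547 CPM in knockout livers, against 1751, 2095 and 1817 CPM in control livers. Every knockout library was below every control library, and the means were 1355 ± 170 CPM and 1887 ± 182 CPM (SD, n = 3 each), a ratio of 0.718. The log2 fold change was -0.48 ± 0.12 (SE) with TMM factors. It was -0.11 when libraries were scaled by size alone, and -0.13 in FPKM.

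In deposited FPKM, which also corrects for gene length, Fn1 read 109.2, 115.3 and 131.1 in knockout livers, against 121.8, 142.3 and 125.5 in control livers. On that scale the groups overlapped, because the highest knockout liver stood above the 2 lowest control livers. Fn1 (ENSMUSG00000026193, GRCm38 chr1:71585520-71653175, minus strand) overlaps Apol7d on the other strand. The table gives 1 value per gene, so the plasma and cellular splice forms cannot be told apart.

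Postn encodes periostin, a protein built of fasciclin domains that activated fibroblasts secrete and that binds collagen and tenascin-C. It had 15.7, 12.4 and 13.7 CPM in knockout livers, against 16.6, 19.5 and 21.4 CPM in control livers. The groups did not overlap but came within 1 CPM of each other, and the ratio of the means was 0.727.

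The log2 fold change of Postn was -0.46 ± 0.14 (SE) with TMM factors. It was -0.09 when libraries were scaled by size alone, and -0.08 in FPKM. In FPKM the values were 1.88, 1.48 and 1.56 in knockout livers, against 1.55, 1.77 and 1.98 in control livers, and the groups overlapped. With RLE factors, which like TMM set libraries to a typical gene, the log2 fold change was -0.49 for Fn1 and -0.47 for Postn, close to the TMM values. The lower position of both genes in the knockout thus rested on scaling to a typical gene, and was within the spread of the libraries with library sizes alone and in FPKM.

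Spon2 encodes spondin 2, also called mindin, a secreted matrix protein known from mouse as an integrin ligand in innate immunity. Its values were 20.6, 14.5 and 9.78 CPM in knockout livers, against 29.6, 18.5 and 17.0 CPM in control livers. The groups overlapped and the spread was wide, with a coefficient of variation of 36.2% in knockout livers and 31.8% in control livers. The log2 fold change was -0.54 ± 0.30 (SE), numerically the lowest of the 9 genes and the least precise.

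Tgfbi encodes the transforming growth factor beta-induced protein, which shares the fasciclin domains of periostin and is made by macrophages and fibroblasts. It had 369.8, 441 and 367 CPM in knockout livers, against 133.9, 133.9 and 138 CPM in control livers. Every knockout liver was above the control livers, and the coefficient of variation was 10.7% in knockout livers and 1.67% in control livers. The log2 fold change was 1.54 ± 0.10 (SE), and the ratio of the means was 2.90.

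Sparc encodes a collagen-binding glycoprotein of remodelling tissue, also known as osteonectin. Its values were 408, 420 and 357 CPM in knockout livers, against 105, 123 and 125 CPM in control livers. The groups lay far apart, with a ratio of 3.36 and a log2 fold change of 1.75 ± 0.11 (SE).

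Sparcl1, or hevin, is the closest relative of Sparc in this set and is known as an anti-adhesive protein. It had 144, 160.3 and 149 CPM in knockout livers, against 15.5, 18.3 and 13.4 CPM in control livers. This was the widest separation of the 9 genes, a ratio of 9.60 and a log2 fold change of 3.26 ± 0.13 (SE). The ratio of Sparcl1 to Sparc FPKM within a library averaged 0.495 ± 0.0427 in knockout livers and 0.174 ± 0.0304 in control livers (SD, n = 3 each), so the pair did not move by the same amount.

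Thbs1 and Thbs2 encode thrombospondins 1 and 2, trimeric proteins that inhibit the growth of blood vessels. Thrombospondin 1 also activates latent TGF-beta and signals through Cd47 and Cd36. Thbs1 had 36.5, 42.2 and 35.0 CPM in knockout livers, against 14.3, 28.2 and 21.4 CPM in control livers. The groups did not overlap, but the control livers spread widely, with a coefficient of variation of 10.1% in knockout livers and 32.6% in control livers. The log2 fold change of Thbs1 was 0.83 ± 0.23 (SE).

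Thbs2 had 52.9, 56.2 and 38.6 CPM in knockout livers, against 6.64, 7.16 and 7.97 CPM in control livers, a ratio of 6.78 and a log2 fold change of 2.76 ± 0.17 (SE). All knockout livers stood above all control livers. The ratio of Thbs2 to Thbs1 FPKM averaged 1.12 ± 0.153 in knockout livers and 0.315 ± 0.0909 in control livers (SD, n = 3 each). Thbs2 thus stood near or above Thbs1 in the knockout livers and below it in each control liver.

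Tnc encodes tenascin-C, a six-armed glycoprotein of wound edges that binds fibronectin. It had 9.03, 6.68 and 8.63 CPM in knockout livers, against 4.75, 7.81 and 5.89 CPM in control livers. The groups overlapped with TMM factors, where the log2 fold change was 0.40 ± 0.23 (SE). They did not overlap in FPKM, where the values were 1.21, 0.893 and 1.09 in knockout livers, against 0.494, 0.794 and 0.610 in control livers.

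**Figure D1:**
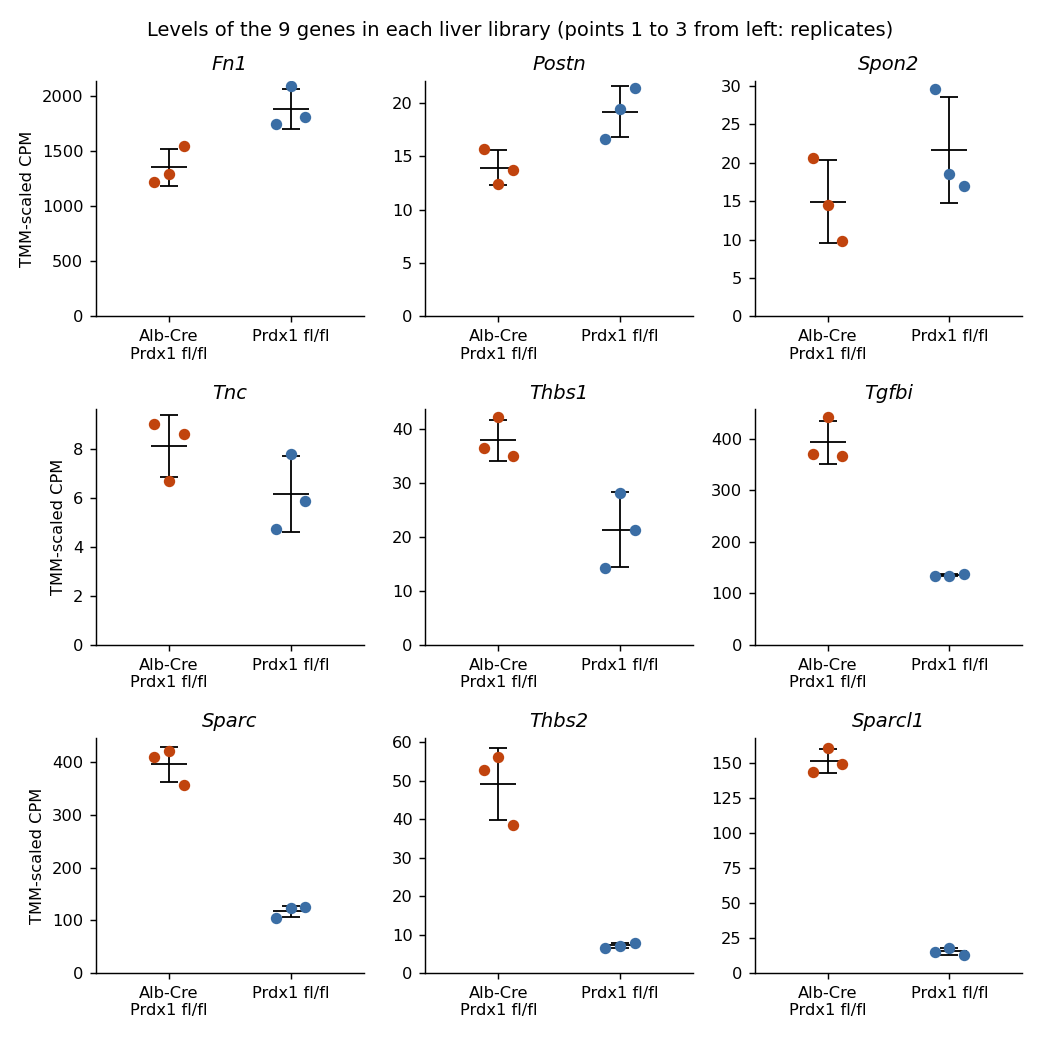
Level of each of the 9 genes in every library, in CPM with TMM-scaled library sizes on linear axes from 0, with knockout livers left of control livers, points for libraries and bars for the mean and SD. Fn1 and Postn sit lower in knockout livers without overlap, Tnc and Spon2 overlap, and the other 5 genes sit higher, up to 9.60-fold for Sparcl1.

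Counted by the all-gene threshold, 5 of the 9 genes were higher (Sparc, Sparcl1, Thbs1, Thbs2 and Tgfbi, beside 19.9% of all tested genes) and 2 were lower (Fn1 and Postn, beside 18.0%). The same 5 and 2 genes had groups that did not overlap, against 28.8% of tested genes that were higher and 24.2% that were lower without overlap. With library sizes alone, Tnc joined the higher genes and neither Fn1 nor Postn was called lower (both were with RLE factors and with DESeq2), where 34.1% of tested genes were called higher and 6.60% lower. The FPKM fit gave the same 6 higher genes, against 35.2% higher and 7.21% lower among all. In FPKM the groups of those 6 genes did not overlap and the groups of Fn1, Postn and Spon2 did, beside 45.0% of tested genes higher and 10.3% lower without overlap. Nothing is read from these counts, because this comparison chose the genes.

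Single libraries also decided these calls. Fn1 was not called lower without knockout 1, Postn was not without knockout 3, control 2 or control 3, and neither was without knockout 2. Thbs1 was not called higher without knockout 1, knockout 2 or control 3.

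**Figure D2:**
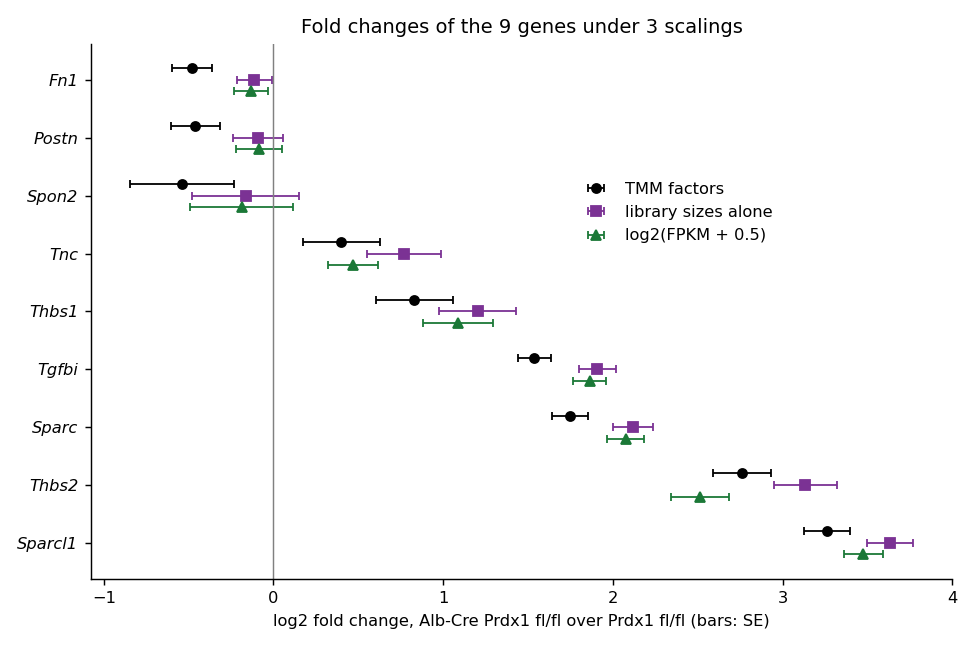
Log2 fold change of the 9 genes, knockout over control, from the TMM fit, from library sizes alone and from deposited FPKM (log2 of FPKM + 0.5). Points are fold changes and bars are SE. Fn1, Postn and Spon2 lie left of 0 on every scale but close to it with library sizes alone and in FPKM, while the other 6 genes lie right of 0 on every scale.

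The plot of the 3 scales shows how far the positions against 0 moved. Set against the median gene they moved less. Between TMM factors and library sizes this is arithmetic, because the change shifts all genes, the median gene included, by nearly the same amount. The FPKM median is that of log2(FPKM + 0.5), where the added 0.5 understates the change of low genes, so distances from it are not fully comparable. Fn1 lay at -0.53 relative to the median gene with TMM factors, -0.53 with library sizes and -0.38 in FPKM. Postn lay at -0.51, -0.51 and -0.33 in the same order, and Spon2 at -0.59, -0.58 and -0.43. Tnc lay above the median gene by 0.35, 0.35 and 0.22, and Sparcl1 by 3.21, 3.22 and 3.23. Of all tested genes, 21.0% had a lower log2 fold change than Fn1, 21.9% a lower one than Postn and 96.8% a lower one than Sparcl1.

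The ratio of Fn1 to Sparc FPKM was 0.973, 0.998 and 1.41 in knockout livers, against 5.40, 5.54 and 4.73 in control livers. Fn1 was at most 1.41 times as abundant as Sparc in knockout livers and at least 4.73 times as abundant in control livers. The ratio of Fn1 to Tgfbi averaged 1.12 ± 0.214 in knockout livers and 4.51 ± 0.469 in control livers (SD, n = 3 each).

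Postn was likewise lower relative to genes of its relatives and partners. The ratio of Postn to Tgfbi FPKM averaged 0.0156 ± 0.00315 in knockout livers and 0.0612 ± 0.00697 in control livers (SD, n = 3 each). The ratio of Postn to Tnc was 1.55, 1.66 and 1.42 in knockout livers, against 3.13, 2.23 and 3.25 in control livers. The ratio of Postn to Col1a1, the main fibrillar collagen gene of scars, averaged 0.0433 ± 0.00453 in knockout livers and 0.339 ± 0.0646 in control livers. In each of these ratios the groups did not overlap.

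Against albumin the order was the other way round: the ratio of Fn1 to Alb FPKM averaged 0.00628 ± 0.000174 in knockout livers and 0.00500 ± 0.000247 in control livers (SD, n = 3 each), without overlap. Relative to Alb, Fn1 was thus higher in the knockout by 0.33 on the log2 scale, while relative to Sparc it was lower, at -2.23. Alb is a single reference gene and itself stood at -0.81 with TMM factors. The median of 28 genes of secreted hepatocyte plasma proteins, described below, was -0.50, and Fn1 differed from it by 0.02.

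**Figure D3:**
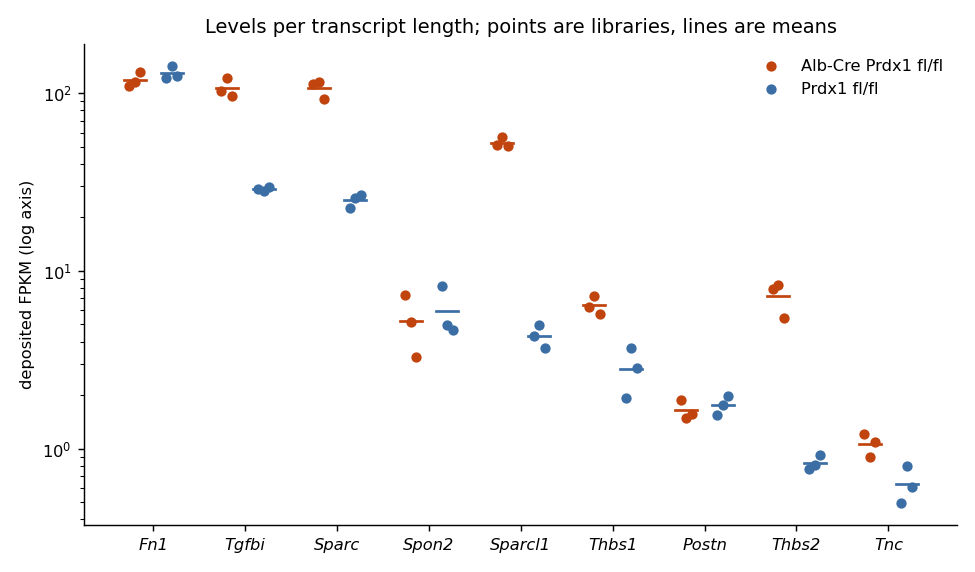
Deposited FPKM of the 9 genes on a log axis, knockout livers left of control livers, with 1 point per library and lines for means. Fn1 lies at a mean of 118.5 FPKM in knockout livers and 129.8 FPKM in control livers, with Sparc and Tgfbi close to it in knockout livers (means 107.0 and 106.8 FPKM) and well below it in control livers (24.9 and 28.8 FPKM).

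Levels per length placed Fn1 first in both groups, at 118.5 ± 11.3 FPKM in knockout livers and 129.8 ± 10.9 FPKM in control livers (SD, n = 3 each). In knockout livers Sparc and Tgfbi followed, at 107.0 ± 12.1 and 106.8 ± 13.4 FPKM, and the ranges of these 3 genes overlapped. Sparcl1 came next at 52.7 ± 3.67 FPKM, apart from its neighbours.

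Lower in the knockout order, Thbs2 (7.22 ± 1.56 FPKM), Thbs1 (6.40 ± 0.781 FPKM) and Spon2 (5.22 ± 2.00 FPKM) overlapped one another. Postn (1.64 ± 0.21 FPKM) and Tnc (1.06 ± 0.159 FPKM) were the least abundant of the 9.

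In control livers Tgfbi (28.8 ± 0.659 FPKM) and Sparc (24.9 ± 2.10 FPKM) followed Fn1 without overlap. Spon2 (5.93 ± 1.95 FPKM), Sparcl1 (4.30 ± 0.636 FPKM), Thbs1 (2.81 ± 0.884 FPKM) and Postn (1.77 ± 0.218 FPKM) formed a run in which each overlapped the next. Thbs2 (0.832 ± 0.0764 FPKM) and Tnc (0.632 ± 0.151 FPKM) came last and overlapped as well. Between the orders, Sparcl1 and Thbs2 stood higher among the 9 in knockout livers, and Spon2 and Postn stood lower. Postn lay below Thbs2 in knockout livers and above it in control livers, without overlap in either group.

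**Figure D4:**
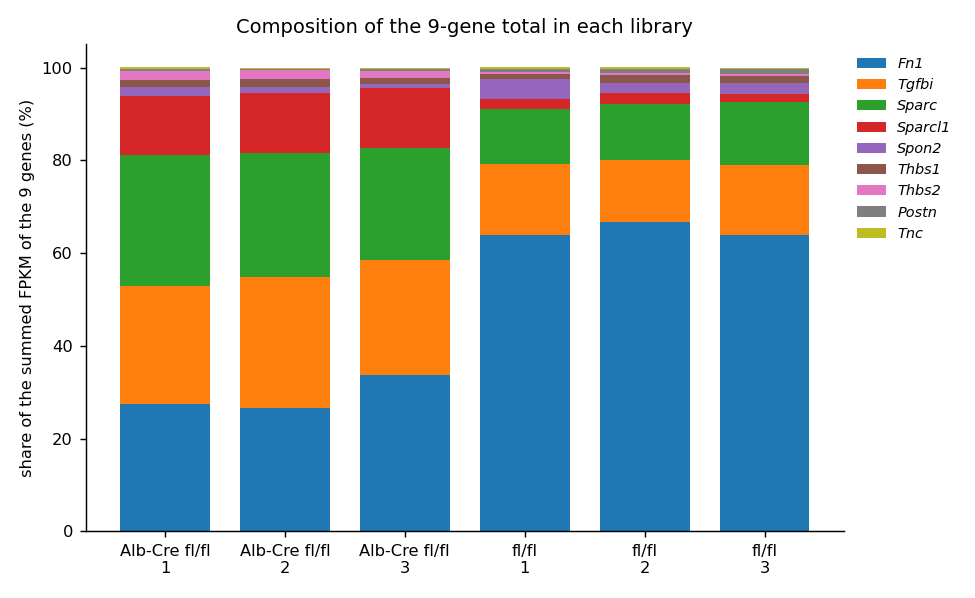
Share of each gene in the summed FPKM of the 9 genes, in percent, as stacked bars with 1 bar per library, knockout livers left. Fn1 takes 26.6% to 33.8% in knockout livers and 64% to 66.8% in control livers, and Sparc, Tgfbi and Sparcl1 take most of the remainder.

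The summed FPKM of the 9 genes was 398.9, 432.7 and 387.7 in knockout livers, against 190.4, 213.1 and 196.2 in control livers. Fn1 made up 29.3% ± 3.94 of it in knockout livers and 64.9% ± 1.61 in control livers (SD, n = 3 each), as the stacked bars show. Sparc made up 26.3% ± 2.08 in knockout livers and 12.5% ± 0.916 in control livers, and Tgfbi made up 26.2% ± 1.75 in knockout livers and 14.5% ± 1.08 in control livers. Sparcl1 made up 12.9% ± 0.192 in knockout livers and 2.15% ± 0.240 in control livers. The message pool of these 9 proteins was thus divided nearly evenly between Fn1, Sparc and Tgfbi, with less Sparcl1, in knockout livers, and was mostly Fn1 in control livers.

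Promoter sequences of 5 of the 9 genes were found in a RefSeq table for GRCm38.p6 (Fn1, Sparcl1, Thbs1 and Spon2 were not among them). Those of 2 genes are printed as the 250 bases before the start that RefSeq gives, on the gene's strand, 5′ to 3′, and both lie upstream of the gene as the deposited table bounds it. Postn is shown as one of the genes on which the comparison turns, and Thbs2 because it had the highest fold of the 5. Capitals mark matches to the motifs searched on both strands, none of which overlap here: the TATA box TATAAA, the CCAAT box spelled by its name, the TEAD motif GGAATG, the AP-1 motif TGANTCA, the SMAD palindrome GTCTAGAC, the cyclic AMP response element TGACGTCA and the Sp1 motif GGGCGG.
Postn: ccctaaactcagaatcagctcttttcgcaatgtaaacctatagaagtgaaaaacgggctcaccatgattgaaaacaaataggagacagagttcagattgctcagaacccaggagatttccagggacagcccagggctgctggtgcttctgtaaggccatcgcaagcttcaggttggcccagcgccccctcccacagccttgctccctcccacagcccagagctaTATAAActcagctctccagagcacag
Thbs2: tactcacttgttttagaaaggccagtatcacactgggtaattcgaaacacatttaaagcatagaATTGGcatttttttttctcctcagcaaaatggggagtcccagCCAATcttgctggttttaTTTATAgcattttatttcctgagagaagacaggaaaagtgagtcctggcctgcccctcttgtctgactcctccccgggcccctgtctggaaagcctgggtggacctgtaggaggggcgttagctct

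The Postn window (chr3:54360857-54361106, plus strand) held TATAAA beginning 26 bases before the start, and 12.4% of 32851 mouse windows of this length held that motif on either strand. A further RefSeq window of Postn, chr3:54359017-54359266, held the letters of none of the motifs. The GC content of the printed windows was 52.0% for Postn and 46.8% for Thbs2, against a median of 52.4% over all windows.

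The Thbs2 window (chr17:14694263-14694512, minus strand) held CCAAT 144 bases before the start on the same strand and 186 bases before it on the opposite strand, a motif in 33.8% of windows, and TATAAA on the opposite strand 126 bases before it. The RefSeq start of Thbs2 opened no transcript in GENCODE, whereas that of Postn did. The Thbs2 start nevertheless lies close to the GENCODE gene, which begins at 14694235 on the minus strand, just beyond the window. The TEAD motif occurred in 12.6% of all windows, the AP-1 motif in 6.75%, the SMAD palindrome in 0.167%, the cyclic AMP response element in 1.55% and the Sp1 motif in 32.7%, and the printed windows hold the letters of none of them. A match is a run of letters and was not tested as a binding site.

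Most of the integrin genes that serve these proteins as receptors were higher in the knockout. Of 13 integrin genes whose products bind fibronectin or matricellular proteins, 10 rose, with a median log2 fold change of 1.33 against 0.05 for all tested genes. By smallest p they were Itgb5 (1.02 ± 0.08), Itga8 (2.82 ± 0.18, the partner of Itgb1 on stellate cells), Itga3 (1.72) and Itga9 (1.33), each past the threshold in the edgeR fit across all genes. Itga5, which pairs with Itgb1 as the classical fibronectin receptor and was picked out after its value was seen, did not pass, at -0.06 ± 0.10 (SE). That position depended on the scaling. Itga5 stood at 0.31 with library sizes alone, where 12 of the 13 integrin genes were called higher, and at 0.28 in FPKM.

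Of 14 tested genes for other receptors, such as syndecans and discoidin domain receptors, 7 rose and 4 fell, with a median of 0.33. The genes with the smallest p were Lrp1 (0.67, an endocytic receptor for thrombospondin complexes), Ddr1 (2.32) and Ddr2 (1.35), which bind collagen, and Cacna2d1 (2.21), which binds thrombospondins. The 4 that fell were Cd36 (-0.47), Sdc2 (-0.45), Sdc4 (-0.57) and Egfr (-0.43), named after their values were seen. None of the 4 passed with library sizes alone or in FPKM, and without knockout 2, knockout 3 or control 1 only 2 receptor genes were called lower.

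Focal adhesion genes encode the machinery that couples these receptors to actin inside the cell. Of 14 focal adhesion genes, 5 rose and 1 fell, with a median of 0.12, beside 19.9% of all tested genes higher and 18.0% lower. Tns1 (1.16) and Tns3 (1.15), tensins that link integrins to actin, and Actn1 (0.74), an actin crosslinker, rose. Fermt2, the integrin activator kindlin-2, fell by 0.79 on the log2 scale, but did not pass with library sizes alone or in FPKM.

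**Figure D5:**
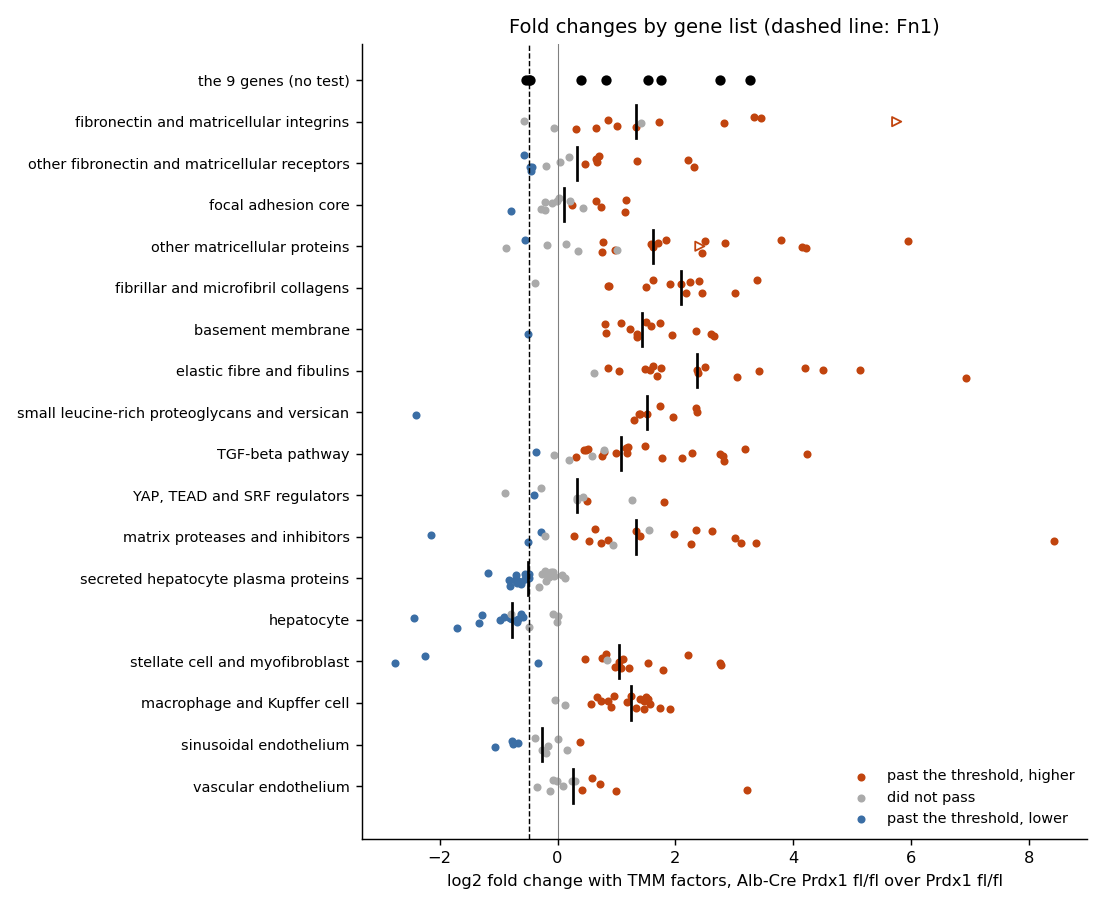
Log2 fold change, knockout over control with TMM factors, for the 9 genes and for each tested gene of the lists shown, coloured by call. The lists are the 12 pathway lists and the hepatocyte, stellate cell, macrophage, sinusoidal endothelial and vascular endothelial markers. A short bar marks each list's median and the dashed line marks Fn1. Open arrows are lower bounds for Itgb6 and Spock3, whose control counts were all 0. Matrix lists lie mostly right of 0, secreted plasma protein and hepatocyte lists left of it, and Fn1 at -0.48 lies among the plasma protein genes (median -0.50).

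Other matricellular genes were mostly higher in the knockout. Of 21 tested, 15 rose and 1 fell, with a median of 1.61 on the TMM scale. Spp1 (4.22, osteopontin), Spon1 (4.15, a relative of Spon2), Fstl1 (2.50, a relative of Sparc) and Smoc2 (1.70, of the same family) had the smallest p. Ecm1, which binds latent TGF-beta, fell by 0.55 and did not pass with library sizes alone or in FPKM.

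The structural matrix rose almost as a whole. Of 13 collagens of fibrils and microfibrils 12 rose, with a median of 2.10, among them Col1a1 (2.46 ± 0.19), Col1a2 (2.10), Col6a1 (2.17) and Col6a3 (3.02). Of 14 basement membrane genes 13 rose, and those with the smallest p were Lamb1 (1.74), Lamb2 (1.95), Hspg2 (1.51) and Agrn (1.58). The exception was Col18a1, the most abundant of them, named after its value was seen. It fell by 0.50, with means of 96.2 FPKM in knockout livers and 107.1 FPKM in control livers, but did not pass with library sizes alone or in FPKM.

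Of 17 tested elastic fibre and fibulin genes 16 rose, with the smallest p for Eln (4.51), Fbn1 (2.51), Fbln2 (2.38) and Emilin1 (1.68). Among the 9 tested small leucine-rich proteoglycans and versican 8 rose, with the smallest p for Dcn (1.29), Lum (2.37), Bgn (1.96) and Prelp (1.39). The exception there was Omd (osteomodulin), which fell by 2.40.

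The position of Fn1 and Postn among these genes is a description, since they were chosen for lying below other matrix. Of the 74 tested genes of these 5 matrix and matricellular lists, 64 rose (86.5%) and 3 fell. The genes with a lower log2 fold change than Fn1 were Col18a1, Ecm1, Omd and Spock2. There were 4 below Postn and 3 below Spon2, whereas 8 lay below Tnc and 13 below Thbs1. With library sizes alone 67 rose and 1 fell, and the numbers below each of these 5 genes were the same. That sameness follows from the scaling, which shifts all genes by nearly the same amount, and adds no support. In FPKM 66 rose and 1 fell, with 3 below Fn1, 4 below Postn, 2 below Spon2, 9 below Tnc and 16 below Thbs1.

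Among 28 genes of plasma proteins secreted by hepatocytes, by contrast, 16 lay below Fn1 and 16 below Postn on each of the 3 scales. A change of scale shifts these genes nearly alike, so the equal numbers add no support. Of these 28 genes 16 fell with TMM factors, and the median was -0.50, which differed from Fn1 by 0.02. The smallest p belonged to Apoa2 (-1.18, an apolipoprotein), Gc (-0.70, the vitamin D-binding protein), F2 (-0.68, prothrombin) and Rbp4 (-0.61, the retinol carrier). With library sizes alone 9 of the 28 passed as lower and 1 as higher, and in FPKM 5 as lower and 1 as higher. Fibrinogen, which fibronectin binds in clots, did not pass with TMM factors, at -0.08 for Fga, -0.17 for Fgb and -0.20 for Fgg, values picked out after they were seen. In the same order the values were above 0 with library sizes alone (0.285, 0.198 and 0.161) and in FPKM (0.265, 0.176 and 0.138).

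Genes of the TGF-beta pathway, which induces Tgfbi, Fn1 and Postn in fibroblasts, were mostly higher. Of 24 tested, 19 rose and 1 fell, with a median of 1.08. Pmepa1 (3.18), a target that dampens the pathway, and the latent TGF-beta binding proteins Ltbp2 (4.24), Ltbp3 (2.81) and Ltbp4 (1.78) had the smallest p. The ligands Tgfb1 (0.75), Tgfb2 (2.75) and Tgfb3 (2.82) also rose and were picked out after their values were seen. The gene that fell was Smad4 (-0.36), the shared signal transducer, which no longer passed without knockout 1, knockout 2 or any 1 of the controls, nor on the other scales.

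Of 9 genes of the YAP, TEAD and SRF regulators, which respond to adhesion and actin, 2 rose, namely Tead2 (1.81) and Mrtfa (0.50), and Yap1 fell by 0.40. The list median was 0.33, against 0.05 for all tested genes, of which 19.9% were higher and 18.0% lower. These counts are near those shares, and nothing is read from them. Yap1 did not pass with library sizes alone or in FPKM. With library sizes alone 5 genes were called higher. Without control 1 or control 2 only 1 gene was called higher; without knockout 1 no gene was called lower, and without control 2 or control 3 there were 2.

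Among 21 tested genes of matrix proteases and their inhibitors, 15 rose and 3 fell, with a median of 1.33. Those 3 were the metalloproteinases Mmp13 (-2.14), Mmp19 (-0.49) and Bmp1 (-0.28, but 0.09 with library sizes alone), picked out with their values known, and with library sizes alone and in FPKM 1 gene was called lower. Timp2 (2.62) and Timp3 (2.26), inhibitors of matrix metalloproteinases, and Adamts5 (3.01), a proteoglycan-cleaving enzyme, were among the 4 with the smallest p. The fourth was Mmp7, a metalloproteinase that cleaves fibronectin, with 157.9 ± 13.7 CPM in knockout livers and 0.453 ± 0.437 CPM in control livers (SD, n = 3 each).

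Whole tissue was sequenced, so fewer cells of a type and less RNA per cell cannot be told apart, and markers of several cell types moved with these genes. Of 18 hepatocyte markers 13 fell, among them Asgr1 (-0.78), Tat (-1.34) and Cyp2e1 (-1.28), and their summed FPKM was 6792 to 7752 in knockout livers and 10950 to 12200 in control livers. All 18 were above 0 in every library. The 5 that did not pass were Cps1 (-0.008), Ass1 (0), Arg1 (-0.071), G6pc (-0.484) and Hal (-0.784), named after their values were seen. With library sizes alone 9 markers were called lower and 1 higher, and in FPKM 9 lower and 0 higher. Of the 18 markers 15 lay below Fn1 with TMM factors. Their part in the level of Fn1 was not tested.

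Of 17 stellate cell and myofibroblast markers, the cells best known for making Postn, 13 rose and 3 fell. Cygb (2.77), Pdgfra (2.75) and Pdgfrb (2.21) had the smallest p, and Acta2, the muscle actin of myofibroblasts, picked out after its value was seen, rose by 1.04. The summed FPKM of the 17 was 243.5 to 289.6 in knockout livers and 89.9 to 94.1 in control livers. The 3 that fell were Hhip (-2.755), Colec10 (-2.255) and Vipr1 (-0.34), named after their values were seen. With library sizes alone these 3 stood at -2.389, -1.88 and 0.03. Mean FPKM in knockout and control livers was 0.053 and 0.285 for Hhip, and 1.97 and 7.35 for Colec10. Beside the 17 markers Postn stood at -0.46 with TMM factors, and the part of stellate cells and myofibroblasts in its level was not tested.

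Macrophage markers, which mark a known source of Tgfbi and Thbs1, rose for 17 of 19 genes, including C1qb (1.47), C1qc (1.46) and Trem2 (1.74). Their summed FPKM was 2122 to 2346 in knockout livers and 681.4 to 789.3 in control livers. Portal fibroblast markers rose for 6 of 7 genes (3 without knockout 2), with sums of 42.4 to 45.3 FPKM in knockout livers and 7.62 to 11.5 FPKM in control livers. Most of the knockout sum was Dpt, with means of 30.4 FPKM in knockout livers and 3.30 FPKM in control livers. Cholangiocyte markers rose for 10 of 11, with sums of 123.9 to 145.5 FPKM in knockout livers and 14.1 to 21.9 FPKM in control livers.

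Endothelial markers, of cells that express Sparcl1 and Sparc, were divided. Of 12 vascular endothelial markers 5 rose (9 with library sizes alone, and 3 without knockout 1, control 1 or control 2), with sums of 98.9 to 109.5 FPKM in knockout livers and 69.5 to 76.6 FPKM in control livers. The vascular median was 0.27 with TMM factors. Most of the vascular sum was Plvap, with means of 57.1 FPKM in knockout livers and 45.0 FPKM in control livers. Plvap stood at -0.007 with TMM factors and did not pass. Of 11 sinusoidal markers 1 rose (Plxnc1, lost without knockout 1, knockout 2, control 1 or control 2) and 4 fell, and the sums overlapped, at 98.4 to 124.5 FPKM in knockout livers and 108.0 to 123.0 FPKM in control livers. The sinusoidal median was -0.26 with TMM factors but 0.12 with library sizes alone and 0.09 in FPKM.

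The remaining marker lists were small. Of 5 tested vascular smooth muscle markers 2 rose (sums of 23.1 to 27.0 FPKM in knockout livers and 8.35 to 9.62 FPKM in control livers), and of 6 mesothelial markers 2 rose and 2 fell (3.41 to 4.95 FPKM in knockout livers and 2.03 to 3.20 FPKM in control livers). The mesothelial median log2 fold change was -1.23. The higher mesothelial sum rested on Gpm6a, with means of 3.08 FPKM in knockout livers and 0.96 FPKM in control livers. Of 5 tested platelet markers 2 rose (7.35 to 9.07 FPKM in knockout livers and 2.00 to 3.51 FPKM in control livers). Most of the platelet sum was Pf4, with means of 6.51 FPKM in knockout livers and 1.97 FPKM in control livers. Of 11 lymphocyte and neutrophil markers 5 rose and 1 fell (28.1 to 30.2 FPKM in knockout livers and 12.7 to 16.7 FPKM in control livers). Without single libraries these small counts moved. Platelet markers called higher were 1 without knockout 3, immune markers called higher were 3 without knockout 2, knockout 3, control 1 or control 2, and mesothelial markers called lower were 1 without knockout 1, control 1 or control 3, with the replicate block or with counts divided by 4, and none without knockout 2. The part of any of these cells in the 9 genes was not tested.

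The genes most like Fn1 over the 6 libraries, by root mean square difference of log2 CPM among 9274 candidates, were C1s1 (0.0241), Tesk1 (0.0465) and Cops3 (0.0471). In that order their log2 fold changes were -0.46, -0.52 and -0.51. The genes most like Postn were Gbp7 (0.0553), Arfgap1 (0.0615) and Sdhb (0.0702), with log2 fold changes of -0.41, -0.47 and -0.47. The likeness is a description over 6 libraries that share 1 contrast.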

How the data were processed

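Liver RNA of 6 mice, 3 per genotype, was sequenced by poly(A) selection with a dUTP-stranded, paired-end protocol and unique molecular identifiers, per the labels' protocols. The submitters' processing notes name cutadapt 1.9, HISAT2 2.0.4, StringTie 1.3.4d, UMI-tools, DESeq2 and edgeR, without their roles. Those notes name mm9, but of 55141 gene identifiers found in GENCODE vM21 for GRCm38, 86.9% had the same position, as did 7 of the 9 genes described (the annotated ends of Fn1 and Tnc differ), so GRCm38 positions are given. The strand setting of the counting is not given in the sources used here, so reads of Fn1, Tnc, Sparcl1 and Thbs1 and of genes overlapping them on the other strand cannot be told apart.

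The table deposited by the authors holds an estimated count and an FPKM per gene and library. The deposited counts were whole, but low values piled up at multiples of 4 (854 genes at 4, 280 at 3 and 167 at 5 in control 1), so they were treated as estimated counts and no counting intervals are given. The FPKM values deposited by the authors are 0.0001 where the count is 0. Columns named wt, per the file headers, were taken as Prdx1 fl/fl, the only genotype without Alb-Cre. No column of another sample was present (0 unused).

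Counts, rounded to whole numbers, were fitted in R 4.3.3 with edgeR 4.0.16 (TMM factors, filterByExpr at a count of 10 and a total of 15, glmQLFit and glmQLFTest, two-sided, genotype as the only term), with Benjamini-Hochberg adjustment over 18931 genes and a threshold of 0.05. The planned edgeR test was kept although the counts proved to be estimated. SE values were derived from the F statistic. FPKM fold changes came from limma 3.58.1 on log2(FPKM + 0.5), which understates the change of low genes. For genes with 0 counts in all libraries of a group, bounds were drawn against a floor of 12 deposited counts summed over that group (3 read pairs, if 4 counts stand for 1). Scripts were tested on simulated data.

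The 9 genes and the 23 gene lists (12 pathway and 11 marker lists, none holding a member) were chosen with earlier results of these data known. Named genes are Prdx1, the 9 genes, up to 4 genes with the smallest p in each pathway list and 3 in each marker list, and the 3 genes most like Fn1 and Postn with at least 10 CPM. Other genes named were chosen after their values were seen. Of the genes inside the rule, some marker genes and Treml1, at 0 in all control livers, are given only in the counts. Alternatives were DESeq2 1.42.0, RLE factors, library sizes alone, no count filter, limma with pseudocounts of 0.5, 1 and 0.1, the replicate number as a block, each library left out in turn and, added after seeing the data, counts divided by 4.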

Additional observations from a re-analysis of the deposited data

How the results depend on the processing

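Scaling decided how many genes passed. Against 3767 higher and 3415 lower genes with TMM factors, library sizes alone gave 6459 and 1249, and limma on FPKM gave 6671 and 1364 (pseudocount 0.5), 6650 and 1364 (pseudocount 1) and 6667 and 1362 (pseudocount 0.1). DESeq2 gave 4178 and 3871, and counts divided by 4 gave 3880 and 3494. Over the 12 pathway lists together, 122 genes were higher and 29 lower. The lower count was 11 with library sizes alone and 7, 8 and 6 with limma on FPKM in the same order, while the higher count stayed between 112 and 140 over all alternatives. Plasma protein genes called lower numbered 16 with TMM factors and between 4 and 20 under the alternatives. Counts of 5 or fewer moved by over 1.5 times in several lists, from 4 down to 0 for other receptors and from 5 up to 9 for focal adhesion genes and vascular endothelial markers.

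Of the 9 genes, 2 were called lower with TMM factors, 1 without a count filter (Fn1), and 0 with library sizes alone and in each of the 3 limma fits, where the count at an unadjusted p under 0.05 was also 0. The log2 fold change spanned -0.58 to -0.11 for Fn1, -0.55 to -0.07 for Postn and -0.83 to -0.16 for Spon2, and neither Prdx1 nor any of the 9 genes changed sign under any of the 15 alternatives. Leaving out 1 library gave 2892 to 3645 higher and 2641 to 3104 lower genes, 112 to 118 higher and 24 to 31 lower list genes, and 4 to 5 higher and 0 to 2 lower of the 9 genes.

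The labels do not say whether replicate numbers pair the samples, and the data do not settle it. Deviations of same-numbered livers correlated at only 0.016 to 0.063. Each of the 6 livers nevertheless correlated best with its own number, a hint from the data and not the design. With the replicate block, 3269 genes were higher and 3207 lower, as were 116 and 27 list genes, and of the 9 genes 5 were higher and 2 lower, with Spon2 in place of Postn. Low values piled up at multiples of 4, which may mean that a read pair is worth about 4 deposited counts. With counts divided by 4 the same 5 higher and 2 lower of the 9 genes were called, so depth was not shown to limit these calls. The number of livers limits their precision.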
